A study of Rattus norvegicus with 12 samples.

Results

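The genes described here are the ubiquitin ligases of muscle atrophy, Trim63, Fbxo32, Fbxo30 and Traf6, together with the transcription factors Foxo1, Foxo3 and Klf15 that are known to act on some of them. They are the 7 of 14329 measured genes whose platform symbol is one of these names, and each had 1 probe set on the array. Male F344 rats had the recurrent laryngeal nerve cut on one side and 1 cm of it taken out under ketamine and xylazine, and their laryngeal muscles were taken 1 week later. Control rats had the same anaesthesia and approach without nerve injury. The muscles were the posterior cricoarytenoid (PCA), the abductor of the vocal folds, and the adductor complex (AC). With 3 arrays for each muscle in injured and in control rats, there were 12 in all. The labels give 10 rats per surgery group and do not tie an array to a rat, so the p-values cover the spread among arrays only, and this may be technical. The labels also do not say which side of the larynx was sampled, and the same rats may have given both muscles.

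Muscle loses mass after denervation largely because its proteins are tagged with ubiquitin and degraded. Trim63 (MuRF1) is a RING-finger ligase that tags thick-filament proteins. Fbxo32 (atrogin-1) and Fbxo30 (MUSA1) are F-box proteins that choose substrates for SCF ligase complexes, and Traf6 builds signalling ubiquitin chains downstream of cytokine receptors. Foxo1 and Foxo3 switch on Trim63 and Fbxo32 when Akt does not hold them in the cytoplasm, and Klf15 is induced by the glucocorticoid receptor and takes part in the same programme. In limb muscle Trim63 and Fbxo32 are known to rise early after denervation.

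Trim63 and Klf15, whose levels fell after injury in the PCA, are shown with the 250 bases before their start sites, because the glucocorticoid receptor and FoxO factors are known to act on the Trim63 promoter. RefSeq promoter entries on GRCr8 matched 4 of the 7 genes: Trim63, Klf15, Foxo1 and Fbxo30. In the Trim63 sequence capitals mark, in order, the receptor palindrome without its outer bases (GAACA and TGTTC with any 3 bases between them), the FoxO element (GTAAACA, here on the opposite strand) and an A/T run of the type bound by MEF2 (TATAAATA, which contains a TATA box, TATAAA). In the Klf15 sequence they mark an E-box (CACGTG). Both are on the plus strand, Trim63 at chr5:151816986-151817235 and Klf15 at chr4:124522765-124523014.
Trim63: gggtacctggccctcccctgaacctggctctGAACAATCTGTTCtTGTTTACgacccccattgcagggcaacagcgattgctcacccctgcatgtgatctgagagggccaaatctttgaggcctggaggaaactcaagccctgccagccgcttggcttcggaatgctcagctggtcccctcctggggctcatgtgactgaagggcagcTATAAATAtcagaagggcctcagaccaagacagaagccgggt
Klf15: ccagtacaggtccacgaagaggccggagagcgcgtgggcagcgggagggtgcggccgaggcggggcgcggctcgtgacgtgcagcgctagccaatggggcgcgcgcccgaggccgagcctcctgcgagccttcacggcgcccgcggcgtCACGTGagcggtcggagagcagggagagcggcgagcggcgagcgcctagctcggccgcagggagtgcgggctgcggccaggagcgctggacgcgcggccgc

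Of 33469 promoters searched on both strands in the same 250 bases, 14 (0.0418%) held the receptor palindrome and 1076 (3.21%) the FoxO element. Trim63 was the 1 promoter of these that held both. Its palindrome spans positions -219 to -207 before the start site and its FoxO element positions -205 to -199, separated by a single base. The A/T run of Trim63 was found in 1.63% of promoters and the E-box of Klf15 in 5.59%. Neither the palindrome, the FoxO element nor the A/T run matched in the Klf15, Foxo1 or Fbxo30 windows, which were rich in G and C (74.4% to 77.2%, against 56.8% in Trim63 and a median of 51.2% over all promoters). Such matches describe letters and not binding.

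The specimens differed in more than innervation. The array medians, on the log2 scale, spanned only 7.11 to 7.17. Thyroid and parathyroid markers (14 measured) stood apart in 3 arrays, with a mean of 9.86 in PCA control 1, 9.58 in the PCA injury 2 array and 8.49 in that of AC injury 2, against at most 7.24 elsewhere. Squamous epithelium markers (9 measured) averaged 6.82 to 10.63 over the PCA control arrays, 11.14 to 11.73 with PCA injury, and 11.24 to 12.24 over the 6 AC arrays. In the PCA 12 of 13 cartilage markers and 10 of 12 adipocyte markers fell. Of 12 measured denervation-response genes 9 rose in the PCA and 9 in the AC, among them the acetylcholine receptor subunit Chrna1 (1.96 ± 0.37 and 2.84 ± 0.37) and the adhesion molecule Ncam1 (1.46 ± 0.22 in the PCA). With the squamous mean as a covariate 1 of these 12 was higher and 1 lower in the PCA. Defining muscle transcripts were present in every array; Acta1, skeletal actin, lay at 13.40 to 13.68. Values written as a ± b are log2 differences with their SE from limma, n = 3 arrays per group, and "rose" or "fell" means an adjusted p of at most 0.05 over all genes.

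The first question was what nerve transection did to the ligases and their regulators in the PCA. Trim63, Fbxo32, Klf15 and Foxo1 fell, while Fbxo30, Traf6 and Foxo3 did not pass the test. These 4 falls of 7 stand beside 25.8% of all genes passing in either direction, 13.3% rising and 12.5% falling. The 7 genes were chosen with earlier results of these data known, so their share is a description and not a test of the set. The injured and control arrays did not overlap for 5 of the 7, all lower after injury, against 37% of all genes in either direction and 18.8% lower. In the plot of every array, the points of Trim63 and Klf15 are the ones most clearly shifted.

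**Figure D1:**
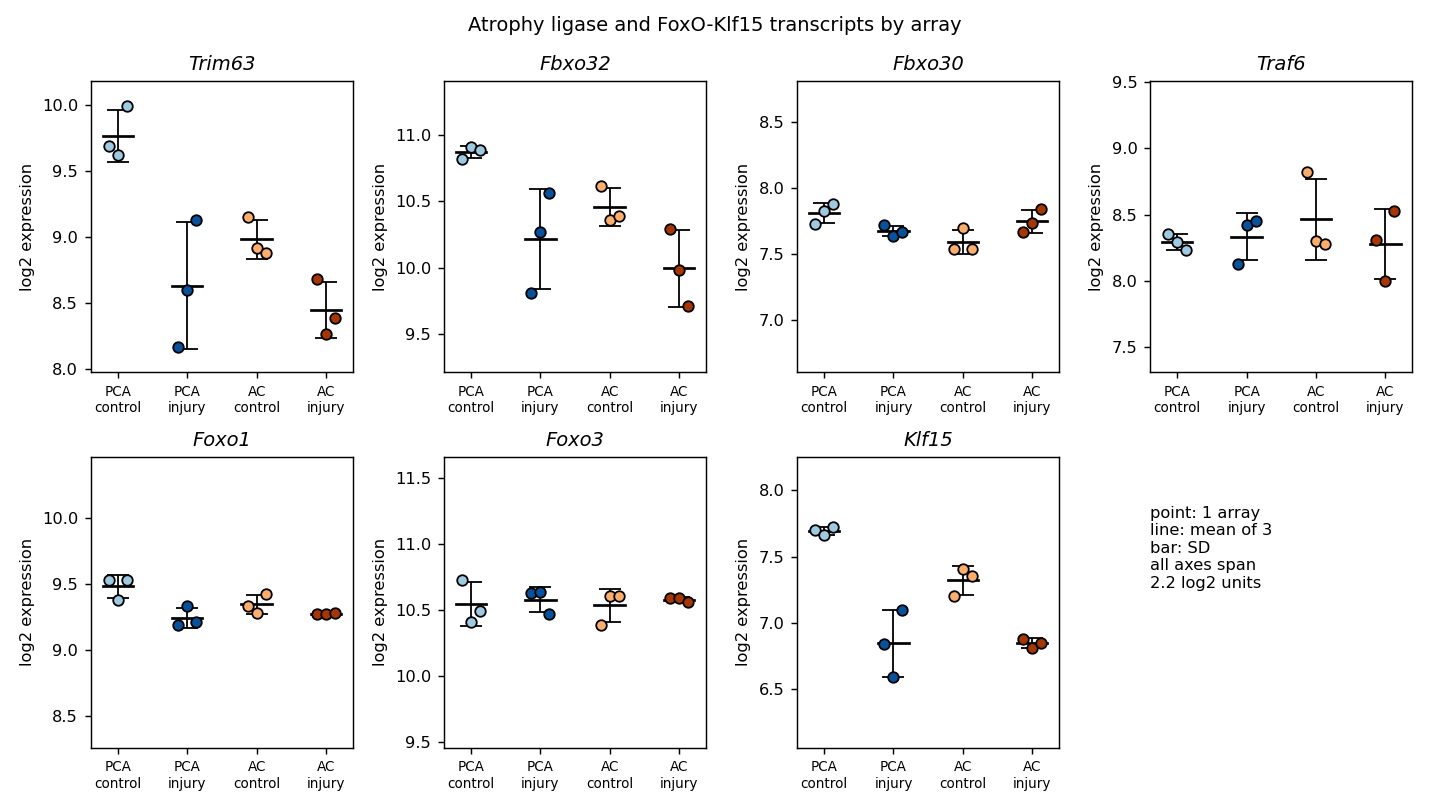
Log2 expression of the 7 transcripts in each of the 12 arrays, with the mean of 3 arrays (line) and the SD (bar) per group; every panel spans 2.2 log2 units. Trim63 spans 9.62 to 9.99 with intact nerve and 8.17 to 9.13 with injury in the PCA, whereas Foxo3 lies between 10.39 and 10.73 in all arrays.

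Trim63 stood at 9.69, 9.62 and 9.99 in PCA control 1, 2 and 3 and at 8.17, 8.60 and 9.13 in PCA injury 1, 2 and 3. Every injured array lay below every control, and PCA injury 3 was the closest to the controls. The difference was -1.13 ± 0.21 (95% interval -1.59 to -0.68, adjusted p = 0.00293), a level 2.19-fold lower. Of the 14329 genes, 140 had a lower value in this comparison. With single arrays left out the difference ran from -1.38 to -0.90, and the call held each time.

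Fbxo32 was nearly uniform in the PCA controls, at 10.82, 10.91 and 10.89, and spread in injured PCA, at 9.81, 10.27 and 10.56. The groups did not overlap, and the injured arrays stood in the same order as for Trim63. The fall was 0.66 on the log2 scale (-0.66 ± 0.18, 95% interval -1.06 to -0.26, adjusted p = 0.021), or 1.58-fold. This call was less firm than that of Trim63: without PCA injury 1 the difference was -0.46 (adjusted p = 0.0706), without PCA control 2 it was -0.64 (adjusted p = 0.0532), and without PCA control 3 it was -0.65 (adjusted p = 0.0618). With the PCA groups fitted alone its adjusted p was 0.0535.

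Fbxo30, the F-box ligase that BMP signalling is known to restrain, was at 7.73, 7.83 and 7.88 in the PCA controls and 7.72, 7.64 and 7.67 in injured PCA. The groups were separated by 0.01 between their nearest arrays, the resolution of the deposited values. The difference of -0.14 ± 0.08 did not pass (adjusted p = 0.223, 95% interval -0.30 to 0.03). Traf6 was at 8.35, 8.29 and 8.23 in the controls and 8.13, 8.42 and 8.45 after injury, so that the injured arrays lay on both sides of the controls. Its difference was 0.04 ± 0.16 (adjusted p = 0.887), with an interval from -0.32 to 0.40.

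Klf15 had the smallest p of the 7. It stood at 7.70, 7.66 and 7.72 in the PCA controls and at 6.84, 6.59 and 7.10 in injured PCA. The controls lay within 0.06 of each other and at least 0.56 above the highest injured array. The difference was -0.85 ± 0.11 (95% interval -1.10 to -0.60, adjusted p = 0.000574), or 1.80-fold lower, and it ran from -0.98 to -0.72 with single arrays left out, always past the test.

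Of the FoxO factors, Foxo1 was at 9.53, 9.38 and 9.53 in PCA controls and 9.19, 9.33 and 9.21 after injury. The highest injured array was 0.05 below the lowest control. The fall of -0.24 ± 0.07 (adjusted p = 0.0327) was 1.18-fold. It did not pass without PCA control 1, PCA control 3, PCA injury 1 or PCA injury 3, left out in turn (adjusted p = 0.0992, 0.109, 0.105 and 0.0751). Foxo3 was at 10.73, 10.41 and 10.49 in controls and 10.63, 10.64 and 10.47 after injury, with the groups fully overlapping. Its difference was 0.04 ± 0.10 (adjusted p = 0.829), and the 95% interval from -0.18 to 0.25 leaves out a change as large as that of Klf15 or Trim63. Foxo4, another FoxO gene, was at -0.55 ± 0.19 and missed the threshold (adjusted p = 0.0536), and Foxo6 was not analysed here. These are transcript levels; FoxO activity also depends on phosphorylation and location, which an array does not measure.

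Without PCA control 1, PCA injury 2 and AC injury 2, those rich in thyroid and parathyroid markers, Trim63 and Klf15 still fell in the PCA, while Fbxo32 (-0.71, adjusted p = 0.0907) and Foxo1 (-0.26, adjusted p = 0.101) no longer passed. With the squamous epithelium mean as a covariate the smallest adjusted p among the 7 in the PCA was 0.0532, the values being -1.05 for Trim63 (adjusted p = 0.127), -0.81 for Fbxo32 (adjusted p = 0.167), -0.80 for Klf15 (adjusted p = 0.0532) and -0.13 for Foxo1 (adjusted p = 0.597). That mean itself separates the PCA groups. Adipocytes, whose markers fell as well, also express Klf15. The part of admixed tissue in these falls was not tested further.

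The second question was what the injury did in the AC. Trim63, Fbxo32 and Klf15 lay lower in every injured AC array than in any AC control, against 28.4% of all genes separated in either direction and 13.1% with injury lower. None of the 7 passed limma over all genes (3 at an unadjusted p under 0.05, where 20.3% of all genes were), in a comparison in which 1.91% of all genes passed (1.15% rose and 0.761% fell). The intervals drawn for both muscles show the same 3 transcripts to the left of 0 in the AC, at shorter distances than in the PCA.

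**Figure D2:**
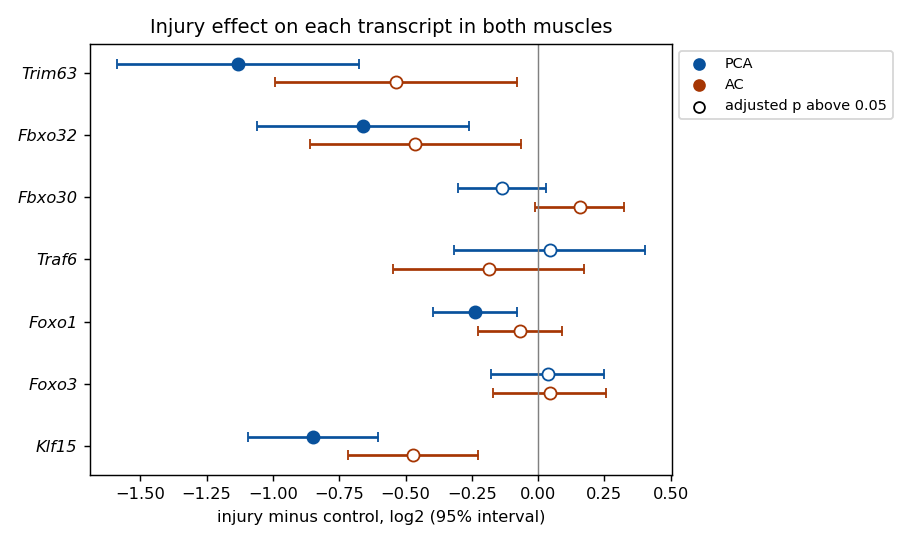
Injury minus control on the log2 scale for the 7 transcripts, with 95% intervals from limma, in PCA (blue) and AC (brown); filled points have an adjusted p of at most 0.05. In the PCA Trim63 (-1.13), Klf15 (-0.85), Fbxo32 (-0.66) and Foxo1 (-0.24) are filled; in the AC no point is.

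In the AC, Trim63 was at 9.15, 8.92 and 8.88 in the controls and 8.68, 8.27 and 8.39 after injury, a difference of -0.54 ± 0.21 (adjusted p = 0.181). Fbxo32 was at 10.62, 10.36 and 10.39 in the controls and 10.29, 9.98 and 9.71 after injury, a difference of -0.46 ± 0.18 (adjusted p = 0.186). For Fbxo32 the highest injured array stood only 0.07 below the lowest control.

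Klf15 in the AC was at 7.20, 7.41 and 7.35 in controls and at 6.88, 6.81 and 6.85 after injury, so the injured arrays were tightly grouped. The difference of -0.47 ± 0.11 just missed the threshold (adjusted p = 0.0565), and it passed with the AC groups fitted alone (adjusted p = 0.0309), with array weights (adjusted p = 0.0202) and without PCA injury 1, 2 or 3 (adjusted p = 0.0482, 0.0339 and 0.0189), which enter only through the shared spread. Klf15 did not pass without the 3 arrays high in thyroid and parathyroid transcripts (adjusted p = 0.151) or with the squamous covariate (adjusted p = 0.0772). Relative to muscle structural genes its difference was -0.20 (adjusted p = 0.444). With other single arrays left out its adjusted p reached 0.206. Foxo1 was at 9.33, 9.28 and 9.42 in AC controls and 9.27, 9.27 and 9.28 after injury (-0.07 ± 0.07). Foxo3 was at 10.39, 10.61 and 10.61 in the controls and 10.59, 10.59 and 10.56 after injury (0.04 ± 0.10), and neither passed.

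Fbxo30 stood at 7.54, 7.70 and 7.54 in AC controls and 7.67, 7.74 and 7.84 in injured AC, which is 0.16 ± 0.08 higher with overlapping groups (adjusted p = 0.28). Traf6 was at 8.82, 8.30 and 8.28 in the controls and 8.31, 8.0 and 8.53 after injury, and its difference was -0.19 ± 0.16 (adjusted p = 0.574).

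The difference of the injury effects, AC minus PCA, was tested directly. None of the 7 passed limma (2 at an unadjusted p under 0.05, where 15.7% of all genes were, against 0.154% of all genes passing the adjusted test, 0.0279% with a higher value in the AC). Trim63 was at 0.60 ± 0.29 (adjusted p = 0.361, 95% interval -0.05 to 1.24), Klf15 at 0.38 ± 0.16 (adjusted p = 0.275) and Fbxo32 at 0.20 ± 0.26 (adjusted p = 0.757). Fbxo30, which lay lower in injured PCA and higher in injured AC, was at 0.29 ± 0.11 (unadjusted p = 0.0195, adjusted p = 0.214). A larger effect in the PCA was therefore not shown for any of them, and the intervals do not exclude one.

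The muscles were then compared with each other. In control rats Trim63 was higher in PCA than in AC by 0.78 ± 0.21 (adjusted p = 0.0353), 1.72-fold, and it was the 1 gene of the 7 past the test, where 10.6% of all genes passed, 3.24% higher and 7.39% lower in PCA. This call was lost without PCA control 1 or 3, without any 1 of the AC controls, or without AC injury 3 (differences 0.67 to 0.87, adjusted p = 0.0503 to 0.128), and its adjusted p was 0.0541 with the replicate number as a block. With the thyroid and parathyroid mean as a covariate Trim63 did not pass (0.84, adjusted p = 0.0551) and Klf15 did (0.45, adjusted p = 0.0396), so that the count of 1 stood for another gene. Klf15 (0.37 ± 0.11, adjusted p = 0.0557), Fbxo32 (0.42 ± 0.18, adjusted p = 0.17) and Fbxo30 (0.22 ± 0.08, adjusted p = 0.0923) were also separated between the control groups, with PCA higher, so that 4 of 7 did not overlap, against 33.7% of all genes. The PCA controls serve both here and in the PCA injury comparison, so these are not independent.

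In injured rats none of the 7 passed limma between PCA and AC (0 at an unadjusted p under 0.05, with 0% of all genes passing the adjusted test). None was separated between these groups, against 6.48% of all genes separated and 4.28% with PCA lower. Klf15 averaged 6.84 in injured PCA and 6.85 in injured AC, and Foxo3 10.58 in both. Trim63 differed by 0.19 ± 0.21 and Fbxo32 by 0.22 ± 0.18. By group mean Trim63 ordered as PCA control (9.77), AC control (8.98), PCA injury (8.63) and AC injury (8.45), and of these neighbours only PCA control stood apart from the next. Fbxo32 ordered the same way (10.87, 10.46, 10.21 and 9.99), again with only PCA control apart from its neighbour. Klf15 ordered as PCA control (7.69), AC control (7.32), AC injury (6.85) and PCA injury (6.84); both control groups stood apart from their next neighbour, while the injured groups overlapped.

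Muscle content was approximated by structural genes. Several are fast-fibre isoforms, so a shift of isoforms would move their mean as well. In bulk tissue it cannot be told apart from fewer fibres or less RNA per fibre. Of 18 measured muscle structural genes, 9 fell and none rose in injured PCA, with a median of -0.53 against -0.03 over all genes; the falls included fast myosin Myh2 (-1.86 ± 0.24) and titin, Ttn (-0.59 ± 0.09), while Acta1 was at -0.05 ± 0.08. The count was 16 without PCA injury 3, 4 or 5 without any other PCA array or AC control 3, 2 with the squamous mean as a covariate, and 3 without the 3 arrays high in thyroid and parathyroid transcripts. Their mean per array was 12.38 to 12.54 in PCA controls and 11.53, 11.79 and 12.29 in PCA injury 1, 2 and 3, the same order as Trim63 and Fbxo32. In the AC none passed limma (3 at an unadjusted p under 0.05, where 20.3% of all genes were), the median was -0.26, and the array means were 12.09 to 12.36 in controls and 11.79 to 12.04 after injury. Macrophage markers moved the other way, 14 of 16 rising in the PCA and 5 in the AC.

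**Figure D3:**
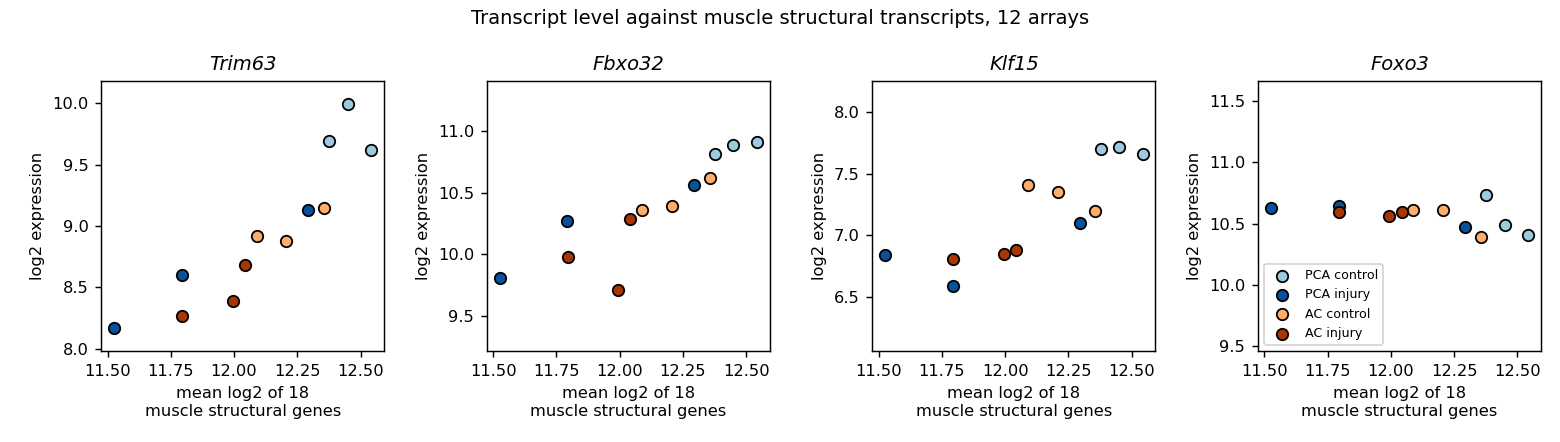
Log2 expression of Trim63, Fbxo32, Klf15 and Foxo3 against the mean log2 value of 18 muscle structural genes, 1 point per array, 12 arrays in 4 groups. Trim63 and Fbxo32 climb with the structural mean over the 12 arrays, and Foxo3 does not. Trim63 does not climb with it among the PCA controls, nor Fbxo32 in injured AC.

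Across the 12 arrays, which share groups and specimens, Trim63 followed the structural mean with a Pearson r of 0.91 (Spearman rho 0.95), Fbxo32 with 0.88 (0.95) and Klf15 with 0.83 (0.90). After each group's mean was subtracted the Pearson r was 0.87 for Trim63, 0.78 for Fbxo32 and 0.43 for Klf15. The structural mean spread most in injured PCA (SD 0.39, against 0.08 in PCA controls and 0.13 in each AC group), so those arrays weigh most in the values within groups. Trim63 did not follow it among the PCA controls, nor Fbxo32 in injured AC. Foxo3 was at -0.52 over the 12 arrays. The macrophage marker mean was inversely related to the same transcripts, with a Pearson r of -0.89 for Trim63 (rho -0.94), -0.86 for Fbxo32 (-0.92) and -0.90 for Klf15 (-0.90), and -0.62, -0.64 and -0.05 within groups. Other tissue markers also went with Trim63, Fbxo32 and Klf15 over the 12 arrays. In that order the Pearson r was 0.73, 0.61 and 0.81 for cartilage (-0.21, -0.30 and 0.09 within groups). For adipocytes it was 0.72, 0.69 and 0.65 (-0.33, 0.03 and -0.65 within groups). For squamous epithelium it was -0.70, -0.54 and -0.65 (-0.09, 0.20 and -0.13 within groups). These are descriptions with no test.

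When each array was set relative to its structural mean, the median of all genes in the PCA comparison moved up by 0.59 and 8999 of the 14329 genes passed. On that scale Trim63 was still lower in injured PCA (-0.55 ± 0.17, adjusted p = 0.0159), and was at -3.36, -3.19 and -3.16 relative to the structural mean in PCA injury 1, 2 and 3 against -2.69, -2.92 and -2.46 in the controls, again without overlap. Fbxo32 (-0.07 ± 0.18, adjusted p = 0.699) and Klf15 (-0.26 ± 0.19, adjusted p = 0.212) no longer passed. Foxo1 changed sign (0.35 ± 0.20, adjusted p = 0.127), and Traf6 (0.63 ± 0.19, adjusted p = 0.0128) and Foxo3 (0.62 ± 0.23, adjusted p = 0.0299) lay higher. In the AC, where the median of all genes moved by 0.27, the smallest adjusted p among the 7 was 0.268 (Fbxo30).

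**Figure D4:**
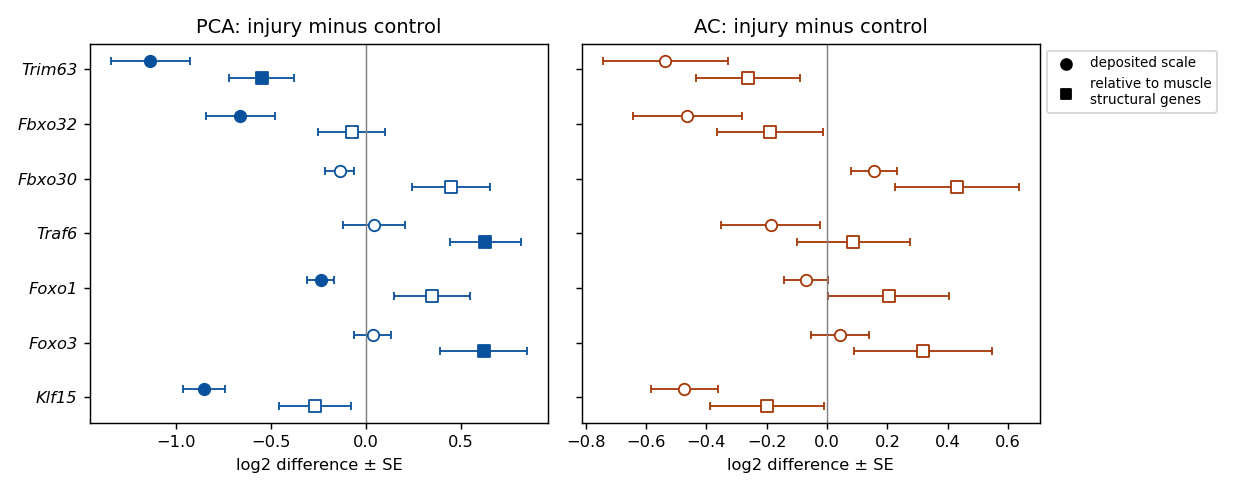
Injury minus control, log2 ± SE, for the 7 transcripts in PCA (left) and AC (right), on the deposited scale (circles) and relative to the mean of 18 muscle structural genes (squares); filled symbols have an adjusted p of at most 0.05. In the PCA Trim63 stays filled on both scales (-1.13 and -0.55), while Fbxo32 and Klf15 become open and Traf6 and Foxo3 become filled above 0.

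The members also varied together to different degrees. Over the 12 arrays Pearson r between Trim63 and Fbxo32 was 0.95, and 0.84 after group means were subtracted. Trim63 and Klf15 stood at 0.89 and 0.41. Foxo1 followed Trim63 at 0.78 across arrays but 0.13 within groups. Foxo3, Traf6 and Fbxo30 followed Trim63 weakly (-0.33, 0.19 and 0.26).

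The genes whose profile over the 12 arrays was most like that of Trim63 were Bnip3, a mitophagy receptor (r = 0.97, rho 0.97), Asb2, a muscle ubiquitin ligase subunit (r = 0.97, rho 0.99), and Bckdk, the kinase that restrains branched-chain amino acid breakdown (r = 0.97, rho 0.98). All fell in the PCA: Asb2 (-1.19 ± 0.26), Bnip3 (-0.89 ± 0.15) and Bckdk (-0.46 ± 0.10). Most like Fbxo32 were Vamp1, Rilp and Spg7 (r = 0.98, 0.96 and 0.96; rho 0.95, 0.95 and 0.97). Most like Klf15 were Gpcpd1, Mtus1 and Cdh23 (r = 0.99, 0.97 and 0.96; rho 0.99, 0.96 and 0.92). Gpcpd1, a glycerophosphocholine phosphodiesterase, was at 9.62 to 9.69 in PCA controls and 8.54 to 9.13 in injured PCA. For Foxo1 they were Cacnb4, Rgs7 and Kcna5 (r = 0.93 to 0.94), for Foxo3 Cr1l, Arrdc1 and Wls (r = 0.88 to 0.94), for Traf6 Eif1ax, Dbi and Wipi2 (r = 0.91 to 0.92), and for Fbxo30 Swt1, Or9e1 and Poglut2 (r = 0.87 to 0.88).

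The pathway lists are read against all genes, of which 13.3% rose and 12.5% fell in the PCA. In the AC 1.15% of all genes rose and 0.761% fell by limma, and 20.3% were at an unadjusted p under 0.05. Relative to muscle structural genes the median of all genes in the PCA moved up by 0.59 and 8999 of the 14329 genes passed. The list counts on that scale are read against this shift. With the squamous mean as a covariate 403 of the 14329 genes passed in the PCA, and 0 to 2 genes of each list: none of the other ligases, the conjugation genes or the insulin, IGF and Akt genes, 1 each of the FoxO targets, FoxO regulators, glucocorticoid, Traf6 and BMP lists, and 2 of the ligase substrates.

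Of 22 other measured ubiquitin ligases of muscle, 7 fell, 1 rose and 14 did not pass in the PCA, with a median of -0.13, whereas 1 fell and 11 rose relative to muscle structural genes. In all, 5 passed without PCA control 2 or 3 and 4 without PCA injury 1. Besides Asb2, the falls included the HECT ligase Wwp1 (-0.71 ± 0.14), the apoptosis inhibitor Xiap (-0.42 ± 0.08) and Fbxl4 (-0.42 ± 0.08), and Skp2, an F-box protein of the cell cycle, rose (0.48 ± 0.12). The closest relatives of Trim63 parted: Trim54 (MuRF3) fell (-0.66 ± 0.21, adjusted p = 0.0407), whereas Trim55 (MuRF2) was at -0.01 ± 0.18 (adjusted p = 0.984). Whether the paralogs differ from each other was not tested. Trim32 was at 0.03 ± 0.10. In the AC none of the 22 passed limma (6 at an unadjusted p under 0.05).

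Of 20 measured ubiquitin-conjugating enzymes and SCF core subunits, 3 fell and 2 rose in the PCA (median -0.05), and 14 rose relative to muscle structural genes. In all, 3 passed without PCA control 1 or 2 or PCA injury 1 or 2, and 2 without the 3 arrays high in thyroid and parathyroid transcripts. Ube2n, the conjugating enzyme that works with Traf6, rose from 9.19, 9.37 and 9.22 to 9.74, 9.72 and 9.93 (0.54 ± 0.09), and Ube2j1 rose by 0.34 ± 0.07. Ube2b, a conjugating enzyme known from wasting muscle, fell (-0.52 ± 0.11), as did the SCF ring subunit Rbx1 (-0.29) and the scaffold Cul3 (-0.28). In the AC none of the 20 passed limma (2 at an unadjusted p under 0.05).

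Of 25 measured FoxO target genes 5 fell, 2 rose and 18 did not pass in the PCA (median -0.11), a share near the 25.8% of all genes that passed; relative to muscle structural genes 1 fell and 14 rose. Pdk4, a brake on pyruvate oxidation, fell (-1.16 ± 0.14), Bnip3 (-0.89 ± 0.15) and the mitochondrial superoxide dismutase Sod2 (-0.62 ± 0.11). Pink1 (-0.89 ± 0.19) and Pik3ip1 (-0.44) also fell, while the lysosomal protease Ctsl (0.76 ± 0.17) and the mitophagy receptor Bnip3l (0.31 ± 0.07) rose. In the AC none of the 25 passed limma (4 at an unadjusted p under 0.05; median -0.11).

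Upstream of FoxO, of 20 insulin, IGF and Akt pathway genes 2 rose and 2 fell in the PCA (median -0.06). The growth factor Igf1 rose from 11.19, 11.62 and 11.39 to 12.22, 11.98 and 11.81 (0.60 ± 0.14), and the adaptor Ywhaz, which holds phosphorylated FoxO, rose by 0.23 ± 0.07. The insulin receptor substrate Irs1 (-0.46) and Tsc1 (-0.24 ± 0.07) fell. The total of 4 became 1 without PCA control 2 or 3 or PCA injury 1 or 2, and 0 without the 3 arrays high in thyroid and parathyroid transcripts, while 12 rose relative to muscle structural genes. Of 17 other FoxO regulators 4 fell and 2 rose (1 and 2 without PCA control 3 or without those 3 arrays, 1 and 10 relative to muscle structural genes): Ppargc1a, the coactivator known to restrain FoxO3, fell (-1.16 ± 0.20), with the energy sensor subunit Prkaa2 (-0.97 ± 0.25), Sirt2 (-0.25) and Usp7 (-0.22), while Junb (1.08 ± 0.13) and the kinase Stk4 (0.70 ± 0.09) rose. In the AC none of the 20 or the 17 passed limma (5 and 6 at an unadjusted p under 0.05).

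The list of glucocorticoid receptor and Klf15 targets also holds the receptor gene. Of its 22 measured genes 12 fell and 1 rose in the PCA, with a median of -0.42. Among them were Tsc22d3 (GILZ), a classical receptor target, at 9.38, 9.24 and 9.42 in controls and 8.40, 8.41 and 8.55 after injury (-0.89 ± 0.12), the receptor target Zbtb16 (-1.23 ± 0.17), the branched-chain ketoacid dehydrogenase subunit Bckdhb (-0.97 ± 0.14) and the receptor itself, Nr3c1 (-0.25 ± 0.06). The metallothionein Mt2A rose (0.52). The count was 9 lower and 0 higher without the 3 arrays high in thyroid and parathyroid transcripts, 1 lower with the squamous mean as a covariate, and 2 lower and 5 higher relative to muscle structural genes. In the AC, Bckdhb (-0.84 ± 0.14) and Dusp1 (-0.46 ± 0.10) fell and Mt2A rose (0.90 ± 0.14).

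**Figure D5:**
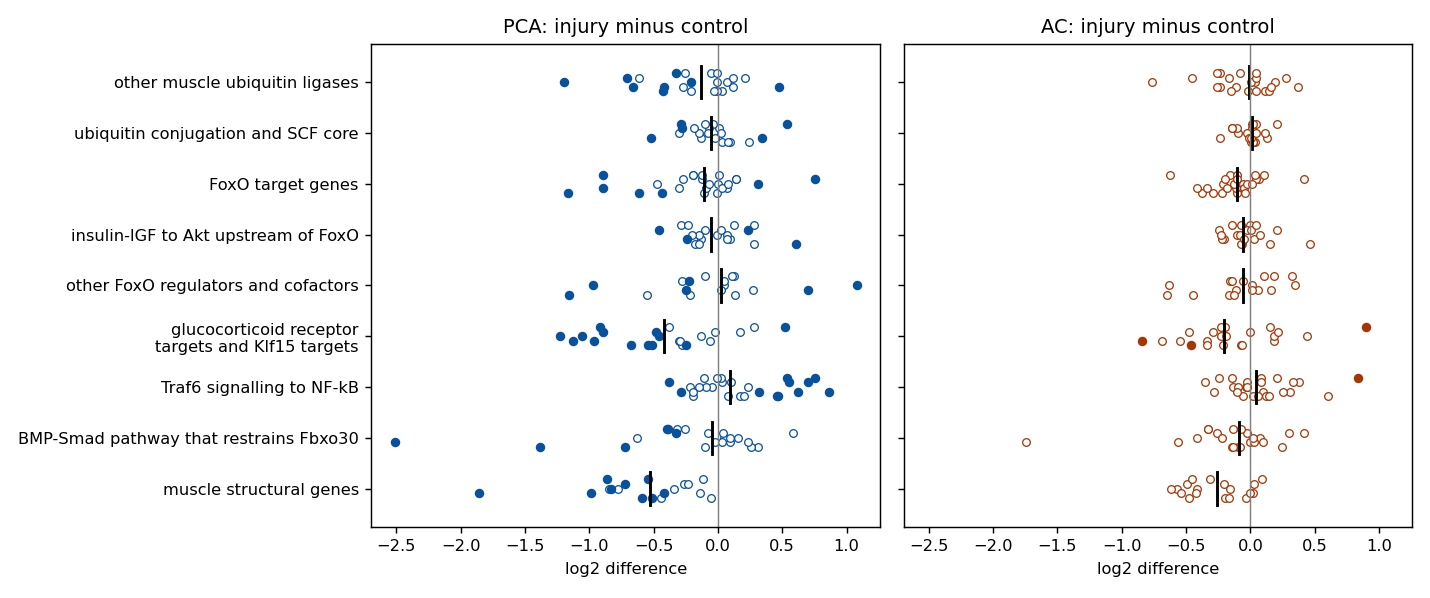
Injury minus control on the log2 scale for each measured gene of 8 pathway lists and the muscle structural genes, in PCA (left) and AC (right); filled points have an adjusted p of at most 0.05 and the black line is the list's median. In the PCA the list of glucocorticoid receptor and Klf15 targets, which also holds the receptor gene, has a median of -0.42 and the Traf6 signalling genes 0.09.

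Traf6 itself did not pass. Of 26 measured genes of its signalling to NF-kB, 9 rose and 2 fell in the PCA (median 0.09), and 19 rose relative to muscle structural genes. Myd88, the adaptor of interleukin-1 and Toll-like receptors, rose by 0.86 ± 0.13, the TNF receptor Tnfrsf1a by 0.70 ± 0.09 and the interleukin-1 receptor Il1r1 by 0.46 ± 0.15, together with Ube2n. The inhibitor Nfkbia (-0.38) and Tab1 (-0.29) fell. Macrophage markers, which rose with them, also express many of these genes, and the part of infiltrating cells was not tested. Tnfrsf12a, the TWEAK receptor, rose in both muscles and was the 1 of 26 to pass in the AC. In the PCA it was at 8.36, 8.14 and 8.18 in controls and 9.07, 8.77 and 9.10 after injury (0.75 ± 0.13, adjusted p = 0.00191). In the AC it stood at 8.18, 7.86 and 8.25 in controls and 8.80, 8.93 and 9.07 after injury (0.84 ± 0.13, adjusted p = 0.0156).

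Around Fbxo30, of 22 BMP and Smad pathway genes 6 fell and none rose in the PCA (median -0.05), and 2 fell and 13 rose relative to muscle structural genes. The falls included Mstn, the secreted inhibitor of muscle growth (-2.51 ± 0.42), the BMP antagonist Grem1 (-1.38 ± 0.25) and the receptor Bmpr1b (-0.72 ± 0.14), and Bmp2 was at 0.31 ± 0.27. In the AC none passed limma (8 at an unadjusted p under 0.05), and Mstn was at -1.75 ± 0.42 (adjusted p = 0.0616). Among 15 measured substrates of Trim63 or Fbxo32, 6 fell and 1 rose in the PCA (1 fell and 6 rose relative to muscle structural genes), with the thick-filament protein Mybpc1 at -0.91 ± 0.16 and Vim, the member that rose and that fibroblasts and macrophages also express, at 0.70 ± 0.11. Some substrates, among them Ttn, Myom1 and Myl1, are also muscle structural genes, so the counts of these lists are not independent. The total of 7 became 4 without any 1 of the PCA controls, AC control 3, PCA injury 1 or PCA injury 2, or without the 3 arrays high in thyroid and parathyroid transcripts. In the AC 1 of 15 passed, the slow troponin Tnni1 (1.24 ± 0.20).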

How the data were processed

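Total RNA from 30 to 50 mg of tissue per specimen was labelled from 100 ng and hybridised to Affymetrix whole-transcript rat arrays, per the labels' protocols. The authors deposited log2 expression values per probe set. The submitters' processing notes list RMA and Partek, with no version. The base of the logarithm was inferred: values run from 2.57 to 14.04, as RMA writes them. Sources used here do not give the background and annotation settings. RMA equalises the distributions of arrays, so each difference is relative to the rest of its array. There is no read depth, and precision is limited by the number of arrays.

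Of 27342 probe sets 15103 have a single symbol (317 have several, 11922 none), and for 500 genes the probe set with the highest mean was used. With limma 3.58.1 in R 4.3.3, a model of 4 group means was fitted to 12 arrays and 14329 genes (8 residual and 3.14 prior degrees of freedom), two-sided, with Benjamini-Hochberg adjustment and a threshold of 0.05. The fit was tested on simulated data. Alternatives covered scaling, dim genes, probe set choice, prior, array weights, replicate block, marker covariates, thresholds and left-out arrays. Plots were drawn with matplotlib 3.10.9. Promoters came from RefSeq on GRCr8.

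The members, lists and naming rule were chosen with earlier results of these data known. The rule names the 7 members, the 3 genes of each list with the smallest p and the first listed, the 3 genes most like each member, and the paralogs; other genes that make up a count of 5 or fewer were named after their values were seen.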

Additional observations from a re-analysis of the deposited data

How the results depend on the processing

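In the PCA injury comparison 4 of the 7 genes passed, all lower. The count was 0 with the squamous epithelium mean as a covariate and 2 without the 3 arrays high in thyroid and parathyroid transcripts, at a threshold of 0.01, and with the PCA groups fitted alone. Single arrays left out gave 2 to 4. Calls over all 14329 genes moved too. They were 3697 in the main fit, 403 with the covariate, 2335 without the 3 arrays, 1865 at 0.01 and 2257 with the PCA groups alone. In the AC the member count was 0 by limma (3 at an unadjusted p under 0.05), and 1 with array weights, at a threshold of 0.1 and with the AC groups alone, with 0 to 1 when single arrays were left out. Over all genes 274 passed there in the main fit, 703 with array weights, 957 at 0.1 and 619 with the AC groups alone. For PCA against AC in controls the member count was 1, and 2 with median centring or without dim genes, 3 with array weights, at a threshold of 0.1 or with the control groups alone, and 0 relative to muscle structural genes, with the squamous covariate, without the 3 arrays, at a threshold of 0.01 or with the replicate block. Single arrays left out gave 0 to 2. Over all genes 1523 passed between controls in the main fit. The number was 1598 with median centring, 1527 without dim genes, 2626 with array weights, 2394 at 0.1 and 1403 with the control groups alone. It was 1000 relative to muscle structural genes, 2 with the squamous covariate, 812 without the 3 arrays, 560 at 0.01 and 1162 with the replicate block. In the other comparisons the member count was 0 under every alternative run, where at most 474 of all genes passed. The fit of the difference of effects needs all groups, so it was not run on part of them.

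Values changed sign as follows, with the cause not tested beyond the scale's own shift. Relative to muscle structural genes, PCA injury gave 0.45 for Fbxo30 and 0.35 for Foxo1; AC injury gave 0.087 for Traf6 and 0.20 for Foxo1; the difference of effects gave -0.11 for Fbxo32, -0.018 for Fbxo30, -0.14 for Foxo1 and -0.30 for Foxo3; PCA against AC gave -0.019 for Fbxo30, -0.10 for Foxo1 and -0.23 for Foxo3 in controls, and 0.042 for Foxo1 and 0.069 for Klf15 in injured rats. With the squamous covariate Traf6 was at -0.14 in PCA injury and 0.032 between controls, and Foxo3 at -0.15 in the difference of effects and -0.15 between controls. For Foxo3 the difference of effects was -0.067 with array weights, -0.040 with the thyroid covariate and -0.062 without the 3 arrays, and the control comparison -0.038, -0.068 and -0.087. Between injured muscles Klf15 was at 0.0067 with median centring, 0.014 with quantile normalisation, 0.025 with the thyroid covariate and 0.11 without the 3 arrays, where Traf6 was at -0.13. With single arrays left out, PCA injury ran from -0.03 to 0.13 for Foxo3 and -0.015 to 0.145 for Traf6, AC injury from -0.03 to 0.08 for Foxo3, the difference of effects from -0.005 to 0.37 for Fbxo32 and -0.087 to 0.073 for Foxo3, controls from -0.087 to 0.073 for Foxo3, and injured muscles from -0.13 to 0.12 for Klf15, -0.087 to 0.178 for Traf6 and -0.062 to 0.42 for Trim63.

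Replicate numbers are shared between groups, but same-numbered arrays did not all deviate together: correlations of deviations over genes were -0.38 to 0.08 between PCA groups, 0.04 to 0.15 between AC groups, -0.34 to 0.03 between the control groups and -0.39 to 0.34 between the injured groups, where numbers 2 and 3 stood at 0.34 and 0.27. Arrays of unlike number reached higher values, 0.66 for PCA control 1 with PCA injury 2 and 0.49 for PCA injury 3 with AC injury 1. They also reached lower ones (-0.62 for PCA injury 3 with AC injury 2). PCA control 1, PCA injury 2 and AC injury 2 are the arrays high in thyroid and parathyroid transcripts. With the replicate number as a block the PCA count was 3, since Foxo1 was lost (adjusted p = 0.0584), the AC count was 0, and the control comparison lost Trim63 (adjusted p = 0.0541).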
